A study of Mus musculus with 26 samples.

Results

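Expression of 8 genes of the plasminogen and coagulation systems was described across the aorta of mice with and without a fibrillin-1 mutation. The genes were Plat and Plau, which encode the plasminogen activators, Plaur, which encodes the receptor of Plau, the serpins Serpine2 and Serpini1, the coagulation trigger F3, the anticoagulant receptor Thbd and the serine protease Prss23. They were chosen by symbol, with earlier results of these data known, and are called the members below. They matched 8 of the 54532 gene identifiers in the count files. All 8 passed the filter on low counts in both fits, and the lowest count of any of them in a library was 93, for Plau.

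RNA sequencing of aortas from male mice gave 26 libraries in 6 groups. The untreated groups, each of 4 libraries, were mutant ascending aorta from Fbn1 C1041G/+ mice, wild-type ascending aorta from their littermates, mutant descending aorta and wild-type descending aorta. The other groups, each of 5 libraries, were ascending aortas of C1041G/+ mice given either AGT-ASO, an antisense oligonucleotide against angiotensinogen mRNA, or a control ASO. Fbn1 encodes fibrillin-1, the main microfibril protein, and mice heterozygous for C1041G, a substitution of a cysteine in the protein, serve as a model of Marfan syndrome. Both antisense groups carry the mutation, so neither has a wild-type counterpart. The sources used here give neither age nor antisense dose. The labels do not say which libraries came from separate animals, so p-values rest on the spread between these libraries, part of which may be technical.

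Plat (tissue-type activator) and Plau (urokinase) cut plasminogen into plasmin, a protease that dissolves fibrin and can degrade or activate matrix proteins and growth factors in the vessel wall. Plaur holds urokinase at the cell surface, while serpins, which trap proteases in irreversible complexes, limit the activators. F3, or tissue factor, is carried by cells of the vessel wall away from the blood and starts coagulation when blood reaches it. Thbd, or thrombomodulin, sits on endothelial and mesothelial cells and turns thrombin into an activator of the anticoagulant protein C. Prss23 is a secreted serine protease of the trypsin family.

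Promoter windows from RefSeq (GRCm38.p6), running from 250 bases before to 50 bases after a transcript start, were matched for 5 of the 8 genes, with 11 windows, 7 of them for Prss23. Shown here are Plaur, Serpini1 and Prss23, 3 of the genes that were higher in mutant ascending aorta, and F3, which was lower in ascending than in descending aorta in both genotypes. Capitals mark matches, on either strand, to AP-1 TGANTCA, TEAD GGAATG, SMAD CAGACA, KLF CCACCC or the GC box GGGCGG, and neighbouring GC boxes can share bases. The Plaur window is chr7:24462233-24462532, plus strand. The Serpini1 window is chr3:75557243-75557542, plus strand. The first Prss23 window, at the 5′ end of the gene, is chr7:89527138-89527437, minus strand, and the second is chr7:89518155-89518454, minus strand. The F3 window is chr3:121723287-121723586, plus strand.
Plaur: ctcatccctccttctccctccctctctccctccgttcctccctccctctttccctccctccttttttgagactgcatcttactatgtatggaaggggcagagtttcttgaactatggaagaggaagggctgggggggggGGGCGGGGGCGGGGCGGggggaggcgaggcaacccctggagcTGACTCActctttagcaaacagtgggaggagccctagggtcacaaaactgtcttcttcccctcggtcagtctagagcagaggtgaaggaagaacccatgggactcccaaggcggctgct
Serpini1: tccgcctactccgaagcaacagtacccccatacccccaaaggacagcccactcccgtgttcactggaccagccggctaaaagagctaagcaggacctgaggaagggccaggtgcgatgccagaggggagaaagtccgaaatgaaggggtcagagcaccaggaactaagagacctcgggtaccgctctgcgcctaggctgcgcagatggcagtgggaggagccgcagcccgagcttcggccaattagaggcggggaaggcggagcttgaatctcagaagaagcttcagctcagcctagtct
Prss23, first window: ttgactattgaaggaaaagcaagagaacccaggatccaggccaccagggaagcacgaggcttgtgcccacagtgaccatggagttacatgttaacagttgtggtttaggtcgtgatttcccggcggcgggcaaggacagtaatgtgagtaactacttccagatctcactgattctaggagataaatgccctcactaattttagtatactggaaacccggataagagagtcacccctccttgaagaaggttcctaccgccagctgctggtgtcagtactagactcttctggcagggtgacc
Prss23, second window: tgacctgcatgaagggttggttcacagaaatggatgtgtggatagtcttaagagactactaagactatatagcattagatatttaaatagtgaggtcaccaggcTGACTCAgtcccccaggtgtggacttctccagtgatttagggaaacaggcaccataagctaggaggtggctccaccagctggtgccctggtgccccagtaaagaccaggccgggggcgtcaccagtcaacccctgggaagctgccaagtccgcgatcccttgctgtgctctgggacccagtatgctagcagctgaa
F3: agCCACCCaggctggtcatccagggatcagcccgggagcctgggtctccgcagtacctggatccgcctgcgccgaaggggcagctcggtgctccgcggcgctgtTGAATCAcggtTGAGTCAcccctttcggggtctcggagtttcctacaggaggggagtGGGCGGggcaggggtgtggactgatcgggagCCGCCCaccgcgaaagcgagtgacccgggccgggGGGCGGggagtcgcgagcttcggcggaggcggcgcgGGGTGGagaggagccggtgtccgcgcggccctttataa

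The Plaur window held an AP-1 match 69 bases before the start, in the letters TGACTCA, and GC boxes at 111, 105 and 100. The F3 window held AP-1 matches 146 and 135 bases before the start, GC boxes and KLF matches. The second Prss23 window held an AP-1 match 146 bases before its start. Serpini1 and the first Prss23 window held none of the 5 motifs. The Serpine2 window, not shown, held 6 GC boxes and no AP-1 match. Of the Prss23 windows not shown, that starting at base 89518132 overlaps the second window and held the same AP-1 site, 169 bases before its own start. The others held GC boxes without AP-1, and that starting at base 89517376 also held a SMAD match. Among all 32851 windows of this length, 7.81% held an AP-1 match, 14.7% TEAD, 21% SMAD, 31.5% KLF and 35.7% a GC box. These matches describe the letters of the windows and were not tested against the expression values.

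The libraries held 17171652 to 28554356 counts. Levels are given in CPM, counts scaled to a common library total with TMM factors, and marker scores are mean log2(CPM + 0.1) over a list. All 10 smooth muscle markers were at 1 CPM or more in every group, with scores of 9.74 to 10.4. All 14 endothelial markers were detected in every group, but their scores were 3.17 to 4.72 in the antisense experiment and 5.53 to 6.11 in the untreated libraries. Mutant ascending library 2 had the highest lymphocyte score of its group, 2.44. Control ASO library 8 had the highest level in its group for 6 of the 8 genes. In bulk tissue, fewer cells of a type and less RNA per cell cannot be told apart. Agt, the target of the AGT-ASO, had 2 to 26 counts per library with AGT-ASO and 6 to 22 with control ASO, too few to check the antisense effect in this tissue.

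Per kilobase of exon, Serpine2 had the highest level of the 8 genes in all 6 groups, and Plau and Plaur had the lowest. Serpine2, or protease nexin-1, stood at 114 ± 7.34 CPM per kb in mutant ascending aorta, 88.7 ± 16.1 in wild-type ascending aorta, 149 ± 14.5 in mutant descending aorta and 143 ± 11.6 in wild-type descending aorta (SD, n = 4 each). It stood at 112 ± 8.05 CPM per kb with AGT-ASO, against 109 ± 14.7 with control ASO (SD, n = 5 each). The activator Plau was at 9.36 ± 3.77 CPM per kb in mutant ascending aorta and 3.5 ± 1.49 in wild-type ascending aorta (SD, n = 4 each), far below the other activator, Plat, at 27.0 ± 1.92 and 22.5 ± 4.72 CPM per kb in the same groups. Of the 42 pairs of neighbours in the 6 orders of level, 18 overlapped between libraries, so those orders do not stand out from the spread. Among them were Serpine2 and Prss23 in mutant ascending aorta, Serpine2 and Thbd in wild-type ascending aorta, and Plaur and Plau in all groups but wild-type ascending aorta and AGT-ASO.

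**Figure D1:**
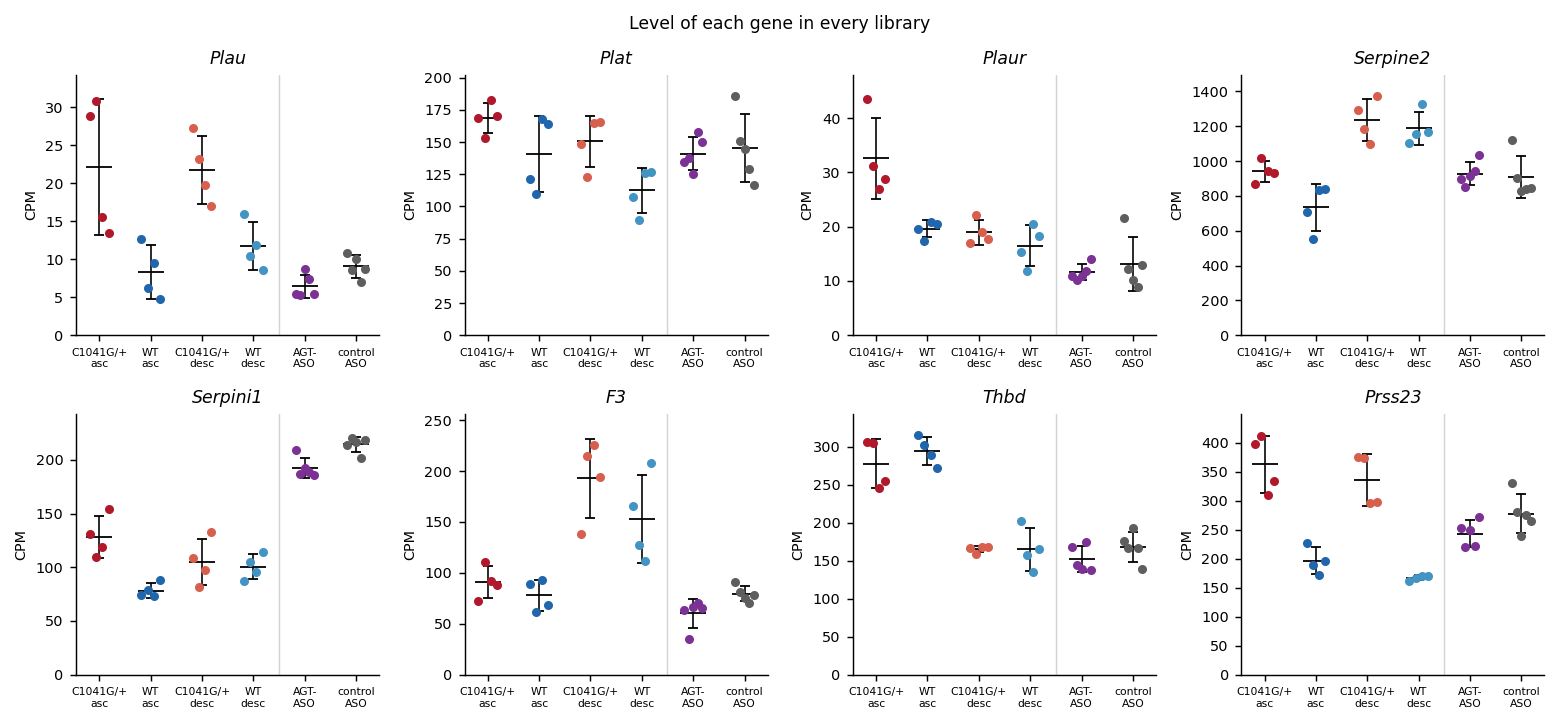
CPM of the 8 genes in every library; points are libraries, bars the group mean with SD, asc and desc the ascending and descending aorta. Groups right of the grey line were scaled in a fit of their own. Prss23 is higher in both C1041G/+ groups than in the WT group of the same region, while F3 and Thbd separate by region in opposite directions.

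In ascending aorta, 4 of the 8 genes were higher in mutant than in wild-type libraries and none was lower, at an adjusted p below 0.05 (edgeR quasi-likelihood F test, Benjamini-Hochberg over 15645 genes). Over all genes tested, 1.18% were called higher in this comparison. The 4 were the activator Plau, its receptor Plaur, the serpin Serpini1 and the protease Prss23. The 8 log2 fold changes had a median of 0.54, against -0.01 over all genes. Because the members were chosen with earlier results of these data known, neither the count nor the median tests the set.

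Plau, on chromosome 14 (20836660 to 20843385, plus strand, GRCm38), measured 28.8, 30.8, 15.6 and 13.4 CPM in mutant ascending libraries 2, 4, 6 and 8, against 12.7, 6.18, 9.48 and 4.79 CPM in wild-type ascending libraries 1, 3, 5 and 7. Mutant libraries 2 and 4 were the high ones, and the lowest mutant library stood just above the highest wild-type library. Relative to wild type this was a log2 fold change of 1.43 ± 0.32 (SE), 2.69-fold higher in mutant aorta (edgeR adjusted p = 0.0317). This call was lost in 9 of 16 alternative fits, with adjusted p of up to 0.21, and without mutant library 2 the adjusted p was 0.11.

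Plaur, on chromosome 7 (24462484 to 24475968, plus strand), measured 43.5, 31.2, 27.0 and 28.7 CPM in mutant ascending libraries, against 19.6, 17.4, 20.9 and 20.5 CPM in wild-type ascending libraries. The groups did not overlap, and mutant library 2 was the highest. Plaur thus had a log2 fold change of 0.74 ± 0.16 (edgeR adjusted p = 0.0203). Without mutant library 2 the adjusted p was 0.0799, without wild-type library 3 it was 0.0663, and in a fit that included the heart muscle score it was 0.151.

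All 12 macrophage markers, a cell type known to express Plau and Plaur, were at 1 CPM or more, with summed levels of 942 to 1300 CPM in mutant ascending aorta and 749 to 867 CPM in wild-type ascending aorta, ranges that did not overlap. By score the gap was narrow, at 5.243 in the lowest mutant and 5.239 in the highest wild-type library. Summed fibroblast markers went the other way, at 5850 to 6950 CPM in mutant and 7520 to 10500 CPM in wild-type ascending aorta. Summed heart muscle markers ranged over 305 to 631 CPM in mutant and 289 to 1070 CPM in wild-type ascending aorta, with no marker at 0 counts in either group. The part of the macrophage and fibroblast markers in the differences of Plau and Plaur was not tested.

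Serpini1, or neuroserpin, an inhibitor of tissue-type activator known mainly from neurons, lies on chromosome 3 (75557547 to 75643495, plus strand). It measured 131, 109, 118 and 154 CPM in mutant ascending libraries, against 73.7, 78.3, 73.2 and 88.0 CPM in wild-type ascending libraries. Every mutant library was above every wild-type library. Its log2 fold change was 0.71 ± 0.13 (edgeR adjusted p = 0.00744), and the call held in all 16 alternative fits, with adjusted p of 7.13e-05 to 0.0377.

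Prss23, on chromosome 7 (89507783 to 89527187, minus strand), had the smallest p of the 8 genes. It measured 397, 410.5, 309 and 333 CPM in mutant ascending libraries, against 227, 189, 172 and 196 CPM in wild-type ascending libraries. Every mutant library was above every wild-type library, and libraries 2 and 4 were the highest of the mutant ones. Its log2 fold change was 0.89 ± 0.11, or 1.85-fold (edgeR adjusted p = 0.000245), and it held in all 16 alternative fits. Prss23 shares exon sequence with Prss23os on the opposite strand, and the sources used here do not give the strand setting of the counting. Prss23os had at most 12 counts in any library, against at least 2914 for Prss23.

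The other 4 genes did not pass the test in ascending aorta. Serpine2 had 941 ± 60.8 CPM in mutant and 735 ± 134 CPM in wild-type ascending aorta (SD, n = 4 each), a log2 fold change of 0.36 ± 0.11 (SE). Its groups did not overlap, yet the edgeR adjusted p was 0.117, and it was 0.0496 with DESeq2. For Plat the log2 fold change was 0.26 ± 0.14 (edgeR adjusted p = 0.373), for F3 0.22 ± 0.20 (adjusted p = 0.643) and for Thbd -0.09 ± 0.10 (adjusted p = 0.734).

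In descending aorta, 1 of the 8 genes, Prss23, was higher in mutant than in wild-type libraries, where 0.678% of all genes were called higher. It measured 375, 374, 296 and 298 CPM in mutant descending libraries 2, 4, 6 and 8, against 161, 167, 170 and 170 CPM in wild-type descending libraries 1, 3, 5 and 7. The wild-type libraries lay close together, and the lowest mutant library was far above them. In this region the log2 fold change was 1.00 ± 0.11, or 2.01-fold (edgeR adjusted p = 6.55e-05), and it held in all 16 alternative fits. The genotype difference of Prss23 in ascending minus that in descending aorta was -0.12 ± 0.15 on the log2 scale (edgeR interaction test, adjusted p = 0.996).

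For Plau, the mutant descending libraries had 27.3, 23.2, 19.8 and 17 CPM, against 16, 10.5, 11.9 and 8.65 CPM in wild-type descending libraries. These groups did not overlap either, but the log2 fold change of 0.89 ± 0.32 did not pass the test (edgeR adjusted p = 0.258). Plat, at 151 ± 19.8 CPM in mutant and 112 ± 17.7 CPM in wild-type descending aorta (SD, n = 4 each), differed by 0.42 ± 0.14 on the log2 scale (edgeR adjusted p = 0.208). The remaining 5 genes had log2 fold changes of 0.00 to 0.33, all with adjusted p above the threshold of 0.05.

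**Figure D2:**
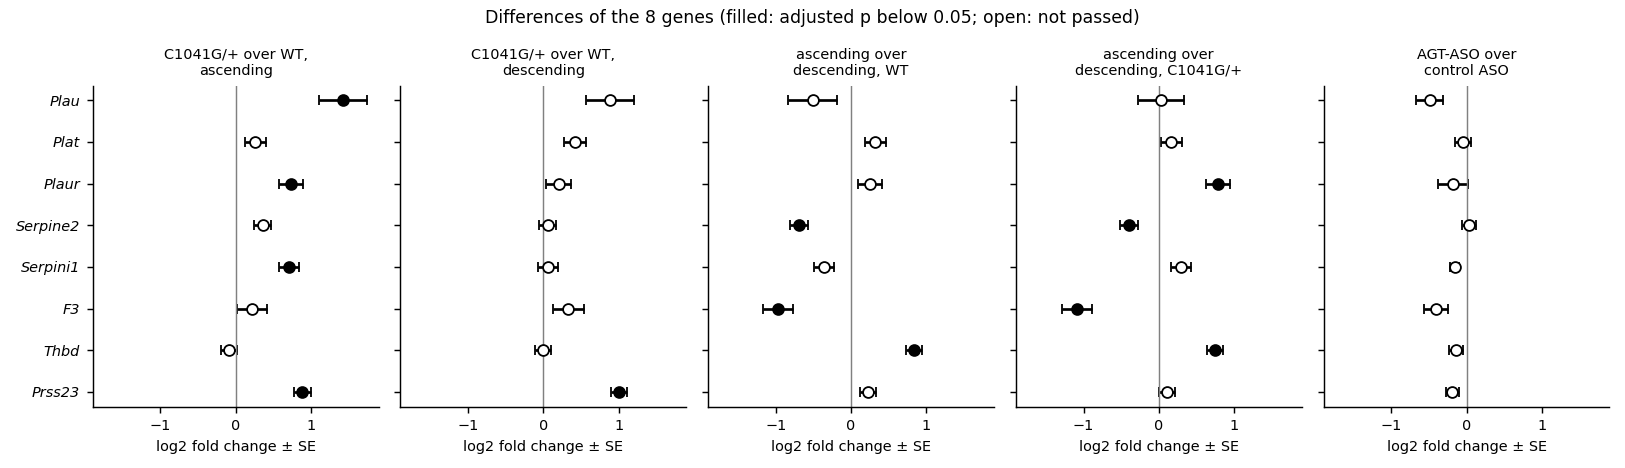
Log2 fold changes with SE from edgeR for the 8 genes in 5 comparisons; filled points passed an adjusted p of 0.05 and open points did not. Plau, Plaur, Serpini1 and Prss23 are filled in the ascending genotype panel and only Prss23 in the descending one, while no point is filled for AGT-ASO over control ASO.

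Between regions, 3 of the 8 genes differed in wild-type aorta. Thbd was higher in ascending than in descending aorta, where 7.82% of all genes were called higher, and Serpine2 and F3 were lower, where 3.31% were called lower. In mutant aorta, Thbd and Plaur were higher in ascending aorta and Serpine2 and F3 lower, where 6.41% of all genes were called higher and 3.51% lower.

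Thbd, on chromosome 2 (148404466 to 148408188, minus strand), measured 306, 305, 245 and 254 CPM in mutant ascending libraries and 167, 158, 168 and 168 CPM in mutant descending libraries. In wild-type mice it measured 315, 303, 289 and 272 CPM in ascending libraries, against 203, 158, 134 and 166 CPM in descending ones. Regions did not overlap in either genotype. The log2 fold change, ascending over descending, was 0.75 ± 0.10 in mutant aorta (edgeR adjusted p = 7.85e-05) and 0.83 ± 0.10 in wild-type aorta (adjusted p = 1.99e-05).

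Mesothelial markers, from a cell layer known to carry Thbd, moved with region in the same direction. Their 10 genes summed to 455 to 717 CPM in mutant ascending and 28.8 to 46.7 CPM in mutant descending aorta, and to 400 to 544 CPM in wild-type ascending and 24.4 to 35.8 CPM in wild-type descending aorta. None of the 10 was at 0 counts in any group. The summed levels of 14 endothelial markers were 1190 to 1900 CPM in mutant ascending and 1790 to 1990 CPM in mutant descending aorta, and 1420 to 1890 CPM in wild-type ascending and 2120 to 2720 CPM in wild-type descending aorta. The endothelial score, which weights its genes equally, was 5.78 ± 0.25 in mutant ascending and 5.66 ± 0.05 in mutant descending aorta, and 5.88 ± 0.16 in wild-type ascending and 5.79 ± 0.16 in wild-type descending aorta (SD, n = 4 each), with overlap between regions in both genotypes. Heart muscle markers also moved with region, with mean scores of 3.23 in mutant ascending and -0.361 in mutant descending aorta. In wild-type aorta these scores were 4.23 and -0.336. In the antisense ascending libraries, scaled apart, mesothelial sums were 263 to 680 CPM with AGT-ASO and 386 to 486 CPM with control ASO. Mean Thbd there was 152 and 168 CPM. Mesothelial markers, heart muscle markers and region cannot be told apart in this design.

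F3, on chromosome 3 (121723537 to 121735048, plus strand), measured 72.1, 111, 92.1 and 88.3 CPM in mutant ascending libraries and 138, 215, 225 and 194 CPM in mutant descending libraries. In wild-type mice it measured 89.1, 61.4, 92.9 and 68.8 CPM in ascending libraries, against 166, 127, 111 and 208 CPM in descending ones. Every descending library was above every ascending library of its genotype. Ascending over descending, the log2 fold change was -1.09 ± 0.20 in mutant aorta (edgeR adjusted p = 0.0019) and -0.97 ± 0.20 in wild-type aorta (adjusted p = 0.00387).

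Serpine2, on chromosome 1 (79794197 to 79861180, minus strand), measured 870, 1019, 942 and 934 CPM in mutant ascending libraries and 1293, 1186, 1097 and 1372 CPM in mutant descending libraries. In wild-type mice it measured 710, 555, 832 and 842 CPM in ascending libraries, against 1102, 1155, 1326 and 1166 CPM in descending ones. Descending libraries were above all ascending ones in both genotypes, and the gap was wider in wild-type mice. Ascending over descending, it differed by -0.39 ± 0.11 in mutant aorta (edgeR adjusted p = 0.0344) and -0.69 ± 0.11 in wild-type aorta (adjusted p = 0.00036). The mutant call was lost in 8 of 15 alternative fits, with adjusted p of 0.108 without mutant ascending library 2 and up to 0.21 without both libraries of mouse 2. It was kept in a fit with the shared library number as a block, at -0.39 ± 0.10 (edgeR adjusted p = 0.0128). The difference between genotypes did not pass the interaction test (adjusted p = 0.988).

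Plaur was the only member that passed the regional test in mutant but not in wild-type aorta. Against its mutant ascending values above, the mutant descending libraries had 17, 22.2, 19 and 17.8 CPM, and all of them were below the ascending ones. The log2 fold change, ascending over descending, was 0.78 ± 0.16 in mutant aorta (edgeR adjusted p = 0.00315) and 0.25 ± 0.16 in wild-type aorta (adjusted p = 0.448). The difference between these was 0.53 ± 0.23 and did not pass the interaction test (adjusted p = 0.909).

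**Figure D3:**
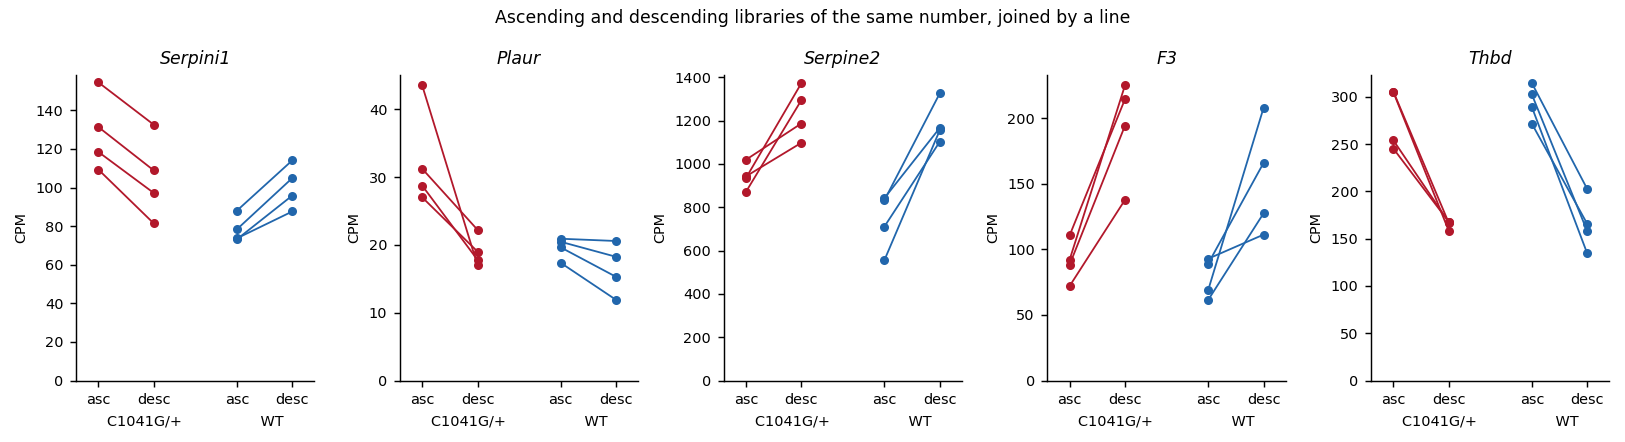
CPM of 5 genes in ascending (asc) and descending (desc) libraries that carry the same number, with a line for each of 4 C1041G/+ (red) and 4 WT (blue) mice. Serpini1 slopes down toward the descending aorta in all 4 C1041G/+ pairs and up in all 4 WT pairs; F3 and Serpine2 slope up and Thbd slopes down in all 8.

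Libraries of ascending and descending aorta share numbers, which were read as pairing the regions although the labels do not say so. Serpini1 differed by region in opposite directions in the 2 genotypes, in every pair. In mutant pairs 2, 4, 6 and 8 the log2 difference, ascending minus descending, was 0.27, 0.43, 0.29 and 0.22. In wild-type pairs 1, 3, 5 and 7 it was -0.25, -0.42, -0.39 and -0.37. All 4 mutant pairs were higher in ascending aorta and all 4 wild-type pairs were lower.

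Without the pairing, no member passed the interaction test, where 0.00639% of all genes were called. Serpini1 and Plaur had unadjusted edgeR p of 0.00303 and 0.032, and the share of all genes at such p was not counted. The interaction of Serpini1 was then 0.65 ± 0.19 (edgeR adjusted p = 0.565). With the replicate block it was 0.66 ± 0.08 (edgeR adjusted p = 0.00642), and this was the only member called, where 0.0831% of all genes were called. The block also turned the regional difference of Serpini1 into a call in each genotype, at 0.30 ± 0.06 in mutant aorta (adjusted p = 0.00281) and -0.36 ± 0.06 in wild-type aorta (adjusted p = 0.000634). Over all genes, the block gave regional calls in either direction for 14.8% in mutant and 15.5% in wild-type aorta, more than without it. In wild-type aorta it added Plat, at 0.31 ± 0.06 (adjusted p = 0.00339), and Plau, at -0.55 ± 0.14 (adjusted p = 0.014), so that 6 members were called there.

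AGT-ASO was compared with control ASO in mutant ascending aorta, in libraries scaled and fitted apart from the untreated ones. No member passed the test, where 0.0668% of all genes were called by edgeR, and none was called by DESeq2 or in any other alternative fit. F3, Plau, Serpini1 and Prss23 were lower with AGT-ASO, at unadjusted edgeR p of 0.0274, 0.0138, 0.0194 and 0.0446. The share of all genes at such p was not counted. Without control ASO library 8 the unadjusted edgeR p was 0.0716 for F3 and 0.141 for Prss23. For Plau and Serpini1 it was then 0.0393 and 0.0249. Of the 8 log2 fold changes 7 were below 0, with a median of -0.17, against -0.01 over all genes. Since the members were chosen with earlier results of these data known, this is no test of the set.

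F3 measured 63.1, 35.4, 66.4, 70.7 and 65.2 CPM in AGT-ASO libraries 14, 15, 18, 19 and 20, against 91.2, 81.6, 75.5, 70.8 and 78.7 CPM in control ASO libraries 8, 12, 13, 16 and 17. The groups did not overlap by a narrow margin, and library 15 stood low. The log2 fold change was -0.40 ± 0.16 (edgeR adjusted p = 0.332). Plau, at 5.43, 5.25, 8.68, 7.41 and 5.45 CPM with AGT-ASO against 10.9, 8.60, 10, 7.01 and 8.77 CPM with control ASO, overlapped between groups and had a log2 fold change of -0.49 ± 0.18 (edgeR adjusted p = 0.273).

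Serpini1 had 209, 186, 192, 188 and 186 CPM with AGT-ASO against 214, 221, 216, 202 and 218 CPM with control ASO. AGT-ASO library 14 reached into the control range, and the log2 fold change was -0.16 ± 0.06 (edgeR adjusted p = 0.296). Prss23 had 253, 219, 250, 221 and 272 CPM with AGT-ASO against 330, 281, 238, 275 and 264 CPM with control ASO, which overlapped (log2 fold change -0.19 ± 0.09, edgeR adjusted p = 0.38). The other 4 genes had log2 fold changes between -0.18 and 0.03.

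Control ASO library 8 set the size of several of these values. It had 21.6 CPM of Plaur, against 8.83 to 13 CPM in the other 4 control ASO libraries. Without it the log2 fold changes of Plat and Plaur changed sign, to 0.06 and 0.08, those of F3 and Prss23 were -0.35 and -0.12, with edgeR adjusted p of 0.365 and 0.485, and that of Serpine2 was 0.12. Summed heart muscle markers ranged over 329 to 768 CPM in AGT-ASO and 712 to 1780 CPM in control ASO libraries. In a fit that included their score, the log2 fold change of Prss23 was -0.39 (edgeR adjusted p = 0.128) and that of F3 -0.69 (adjusted p = 0.254), and those of Plaur and Plat were -0.60 (adjusted p = 0.412) and -0.26 (adjusted p = 0.564). In a fit that included the endothelial score, Plaur and Plat were at -0.40 and -0.09 (edgeR adjusted p = 0.671 and 0.928).

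Of 18 other genes of the plasminogen system, 13 could be tested. Their median log2 fold change in ascending genotype was 0.07, against -0.01 over all genes, and none was called in descending genotype or with AGT-ASO. By region, the lipoprotein receptor Vldlr was higher in wild-type ascending aorta, at 0.48 ± 0.15 on the log2 scale (edgeR adjusted p = 0.0416). In mutant aorta Lrp8, a related receptor, was higher in ascending libraries, at 0.69 ± 0.19 (adjusted p = 0.0226). The Vldlr call was lost in 6 of 14 and the Lrp8 call in 6 of 15 alternative fits. Plg, the plasminogen gene, is expressed mainly in liver and had 0 counts in both mutant groups, 2 in wild-type ascending and 3 in wild-type descending libraries, while AGT-ASO libraries held 40 and control ASO libraries 35 (two-sided exact permutation p = 0.619).

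Of 31 coagulation genes, 16 could be tested in untreated libraries and 17 in the antisense ones. Gas6, a ligand of TAM receptors and a vitamin K-dependent protein, was the only one called in ascending genotype, at 1036 ± 33.7 CPM in mutant and 813 ± 25.4 CPM in wild-type ascending aorta (SD, n = 4 each; log2 fold change 0.35 ± 0.07, edgeR adjusted p = 0.0119). This Gas6 call was lost in 1 of 16 alternative fits, that with the heart muscle score (edgeR adjusted p = 0.0575). No coagulation gene was called in descending genotype or with AGT-ASO. By region, Gas6 and F2r, the thrombin receptor, were higher in ascending aorta of both genotypes, and Vwf, the endothelial von Willebrand factor, was lower. The wild-type regional call of Gas6 was lost in a fit of only the groups compared (edgeR adjusted p = 0.059).

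Vwf had 440 ± 92.4 CPM in mutant ascending and 645 ± 58.3 CPM in mutant descending aorta, and 400 ± 57.6 CPM in wild-type ascending and 813 ± 149 CPM in wild-type descending aorta (SD, n = 4 each). Its log2 fold change, ascending over descending, was -0.55 ± 0.15 in mutant (edgeR adjusted p = 0.0243) and -1.02 ± 0.15 in wild-type aorta (adjusted p = 0.000134). The mutant call was lost in 4 of 15 alternative fits. F2r differed by 0.61 ± 0.11 in mutant (adjusted p = 0.00144) and 0.72 ± 0.12 in wild-type aorta (adjusted p = 0.000245). Tfpi, the inhibitor of the tissue factor pathway, and Procr, the endothelial protein C receptor, were called in none of the 6 comparisons of the main fits. With the endothelial score as covariate, Procr was called lower in ascending than in descending aorta of both genotypes. Its log2 fold change was then -0.79 in mutant (edgeR adjusted p = 8.26e-05) and -0.61 in wild-type aorta (adjusted p = 0.000626). Without mutant ascending library 2 it was also called in mutant aorta (edgeR adjusted p = 0.0495). In the antisense experiment, where endothelial scores were low, Vwf was at 49.6 ± 22.9 CPM in AGT-ASO and 53.4 ± 15.6 CPM in control ASO libraries, and Procr at 9.07 ± 2.92 CPM in AGT-ASO and 9.30 ± 1.80 CPM in control libraries (SD, n = 5 each).

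Of 12 other serpin genes, 8 could be tested in untreated libraries and 7 in the antisense ones. Serpinb8, an intracellular inhibitor of furin-like proteases, was called in both genotype comparisons. It had 33.9 ± 3.01 CPM in mutant and 23.7 ± 1.76 CPM in wild-type ascending aorta, and 27.3 ± 4.31 CPM in mutant and 17.6 ± 1.30 CPM in wild-type descending aorta (SD, n = 4 each). The log2 fold change was 0.52 ± 0.11 in ascending (edgeR adjusted p = 0.013) and 0.64 ± 0.11 in descending aorta (adjusted p = 0.00426). The ascending call was lost without mutant library 2 (adjusted p = 0.0516) and with the heart muscle score as covariate (adjusted p = 0.0879).

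By region, 3 of the 8 tested serpins were called higher in mutant ascending aorta, where 6.41% of all genes were called higher and 3.51% lower. In wild-type ascending aorta 4 of the 8 were called higher, where 7.82% of all genes were called higher and 3.31% lower. None of the 8 was called lower in either genotype. Serpinb9, an inhibitor of granzyme B, had log2 fold changes of 0.46 ± 0.07 in mutant (edgeR adjusted p = 0.000123) and 0.30 ± 0.07 in wild-type aorta (adjusted p = 0.00522). Serpinb1a, an inhibitor of neutrophil proteases, had 0.67 ± 0.19 in mutant (adjusted p = 0.0319, lost in 9 of 15 alternative fits) and 0.79 ± 0.19 in wild-type aorta (adjusted p = 0.0096). Serpinb8 was called in wild-type aorta (0.43 ± 0.11, adjusted p = 0.0128), while in mutant aorta it had 0.31 ± 0.11 without the replicate block (adjusted p = 0.079). With the block it was called in mutant aorta too, at 0.32 ± 0.08 (edgeR adjusted p = 0.019). Its difference between genotypes did not pass the interaction test (edgeR adjusted p = 0.996). Serpinb5, or maspin, an epithelial serpin, was called in both but stood at 0.78 ± 0.23 CPM in mutant and 0.70 ± 0.20 CPM in wild-type ascending aorta, with 0 to 5 counts in each descending library. None of the 7 was called with AGT-ASO.

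**Figure D4:**
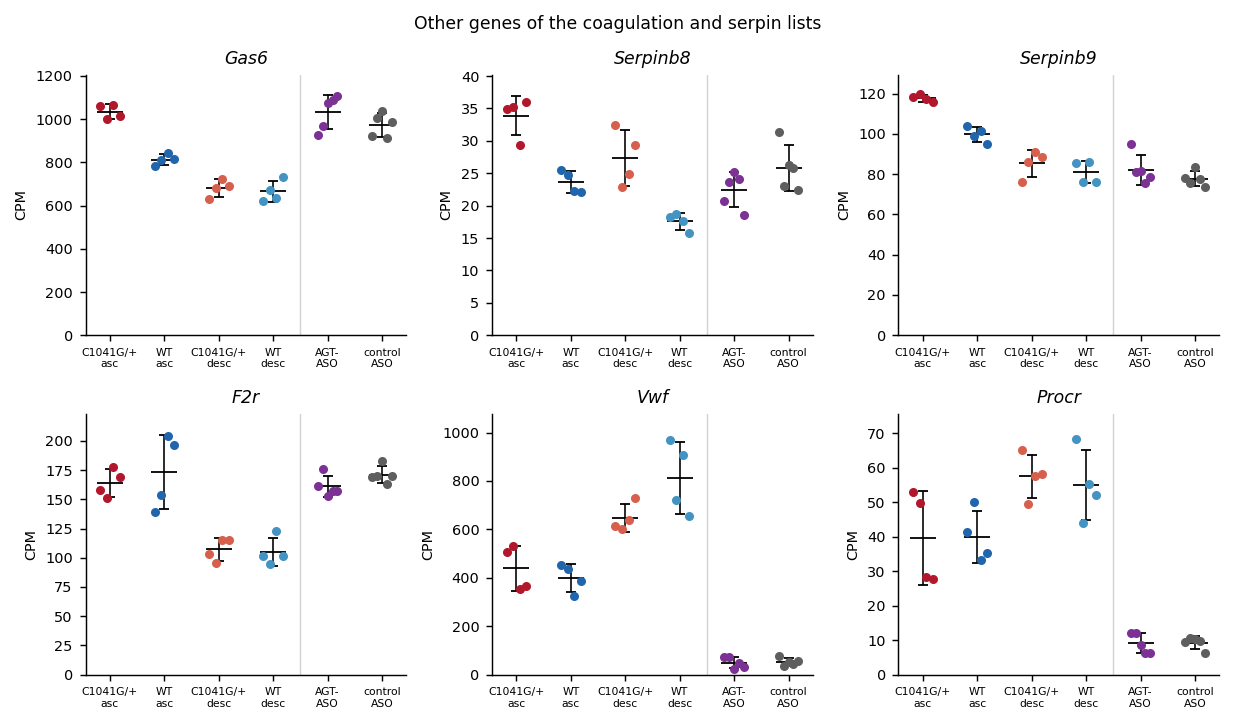
CPM of 6 other genes of the coagulation and serpin lists in every library; points are libraries and bars the group mean with SD. Gas6 is higher in C1041G/+ than in WT ascending aorta, and Vwf and Procr are low in both antisense groups, which were scaled apart.

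The genes most alike each member were those with the smallest root mean square difference of centred log2 CPM over the 16 untreated libraries, among 12785 genes. For Prss23 they were Trnp1 (0.124), Lgals3 (0.193) and Glipr2 (0.219), where Prss23 itself varied by 0.498 about its mean. For Thbd they were Hspa12a (0.122), Frmd4b (0.122) and Shtn1 (0.147), with Thbd varying by 0.421, and for Serpine2 Susd5 (0.15), Cpne2 (0.161) and Klhl30 (0.167), with Serpine2 varying by 0.34. Each of these differences was below the member's own variation, but picking the smallest among so many genes makes that likely in any case.

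For Plaur the genes most alike included Idi1 (0.199) and Ptprn (0.203), where Plaur varied by 0.428. For F3 they were Astn2 (0.274), Cacna1a (0.275) and Prrx1 (0.285), where F3 varied by 0.597. For Serpini1, Ywhag (0.195), Lgals1 (0.195) and Opa3 (0.196) were nearest, against its own 0.309. For Plau the nearest were Cd300lb (0.378), Lrrc39 (0.431) and Cers6 (0.436), against its own 0.746. The 16 libraries were read as pairs from 8 mice and differed in depth, from 17171652 to 23959303 counts, and no test was made of this likeness.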

How the data were processed

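The values deposited by the authors are raw, whole-number counts of each Ensembl gene in 26 libraries, with no normalization. Per the submitters' processing notes, fastp and STAR 2.6.1d were used with the build mm10. The sources used here do not name the counting tool, its strand setting or the annotation. GENCODE M21, on the same build, named 99.93% of the identifiers. Per the labels' protocols, libraries were made with a NEBNext Ultra RNA kit.

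Counts were tested with the edgeR 4.0.16 quasi-likelihood F test (R 4.3.3, TMM, filterByExpr, robust, two-sided, Benjamini-Hochberg over all genes of a comparison, threshold 0.05). The 16 untreated libraries were fitted together (15645 genes, 12 residual degrees of freedom, biological coefficient of variation 15.9%), and the 10 antisense libraries apart (14981 genes, 8 degrees of freedom, 17.1%). The code was tested on simulated counts. CPM values of the 2 experiments were not tested against each other. Libraries held 17171652 to 28554356 counts. SD measures the spread between libraries of a group. SE is the uncertainty of a log2 fold change from the fit, which estimates the spread over all its groups with information shared across genes.

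After group means were removed, all 8 ascending and descending pairs of 1 number correlated across genes (r of 0.162 to 0.305; other pairs had a mean of -0.0331; genes are not independent replicates), and 6 of the 8 ascending libraries correlated best with their own number. Since every pair exceeded 0.1, the number was read as marking the regions of 1 mouse, and it entered alternative fits as a replicate block, fixed in edgeR for region and interaction and random in limma 3.58.1 for genotype.

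The 8 genes and all gene lists were chosen with earlier results of these data known. Besides the 8 genes, the text names up to 4 called genes with the smallest p from each list and comparison, Plg, Tfpi and Procr in any case, and the 3 genes most alike each member called. Some genes that this rule takes are not reported here. Alternatives were DESeq2 1.42.0, other size factors, no count filter, marker scores as covariates, fits of only the groups compared, the block, and each library left out. An alternative without both libraries of mutant mouse 2 was added after seeing the data.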

Additional observations from a re-analysis of the deposited data

Results flagged for a closer look

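Among the 48 combinations of a gene and a group, 4 held a library far from the others of its group by Dixon's criterion, which chance meets in about 1 of 20 groups. F3 was lowest in AGT-ASO library 15, at 35.4 CPM, where the other 4 AGT-ASO libraries had 63.1 to 70.7 CPM. Serpini1 was highest in AGT-ASO library 14, at 209 CPM, against 186 to 192 CPM in the others. Serpine2 was highest in control ASO library 8, at 1118 CPM, against 829 to 902 CPM in the others, and the same library led its group for 6 of the 8 genes. Thbd was lowest in mutant descending library 4, at 158 CPM, where the other 3 libraries had 167 to 168 CPM, so that the distance is small in CPM.

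The genotype difference of Serpini1 differed between ascending and descending aorta in the fit with the replicate block (edgeR interaction test, 0.66 ± 0.08 on the log2 scale, adjusted p = 0.00642). Ascending minus descending was above 0 in 4 of 4 mutant pairs and below 0 in 4 of 4 wild-type pairs. In the fit without the block the adjusted p was 0.565.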

How the results depend on the processing

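Of 784 recomputed values of the 48 member results, 733 kept their direction and side of the threshold, 21 fell below it, 8 passed it and 22 changed sign. The 4 members called in ascending genotype became 2 with heart muscle score as covariate and 2 without both libraries of mutant mouse 2; leaving out 1 library gave 2 to 4. With the replicate block, 6 members were called by region in wild-type aorta and 1 by interaction; in mutant aorta the block added Serpini1, and the random block changed no genotype call of a member. Over all genes, the 342 ascending genotype calls became 779 with DESeq2, 544 with the endothelial and 118 with the heart muscle score as covariate, 161 without mutant mouse 2, and 163 to 347 without 1 library. The 189 descending genotype calls became 414 with DESeq2. The 1 interaction call became 38 with DESeq2, 6 without the count filter, 13 with the replicate block and 1 to 10 without 1 library. The 10 antisense calls became 277 with DESeq2, 147 without the filter, 0 with the endothelial score and 0 to 180 without 1 library, 180 being without control ASO library 8. All values that changed sign were uncalled. Thbd in descending genotype was -0.000596 with the heart muscle score, -0.00298 without mutant mouse 2 and -0.083 to 0.115 without 1 library. Plau in mutant region was -0.244 with the endothelial score, -0.0375 with the block, -0.00224 without mouse 2 and -0.166 to 0.208 without 1 library. Serpine2 with AGT-ASO was -0.0683 with the endothelial score, -0.177 with the heart muscle score and -0.00677 to 0.121 without 1 library. Leaving out 1 library gave -0.0697 to 0.166 for Serpini1 in descending genotype, -0.298 to 0.00384 for the interaction of F3, and, with AGT-ASO, -0.115 to 0.0608 for Plat and -0.301 to 0.0765 for Plaur. The causes of these changes were not tested. Depth was lowest for Plau, at 93 to 675 counts per library.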
